A study of Mus musculus with 2 samples.

Results

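The miR-338 and miR-3065 cluster consists of the mature mouse microRNAs (miRNAs) mmu-miR-338-3p, mmu-miR-338-5p, mmu-miR-3065-5p and mmu-miR-3065-3p, written below without the species prefix, which are cut from hairpins on opposite strands of 1 stretch of mouse chromosome 11. The array carries 1881 mouse miRNAs, from which these 4 were chosen by name, with all of their probes and spots. Whole femurs, bone and marrow together, were taken from wild-type female C57BL/6 mice aged 9 months after ovariectomy (OVX), in which the ovaries, the main source of estrogen, are taken out, or after a sham operation. Each group was 1 RNA pool of 4 mice on 1 single-colour Agilent miRNA array, so no test between OVX and sham was possible and "higher" or "lower" describes these 2 arrays. The time from surgery to collection was not given in the sources used here. In pooled whole femur, fewer cells of a type and less miRNA per cell cannot be told apart.

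A miRNA guides a silencing complex to messenger RNAs through its seed, bases 2 to 8 from its 5′ end, and so lowers the output of many genes at a time. miR-338 lies within Aatk, a kinase gene of the nervous system, and is best known for driving the maturation of oligodendrocytes, the myelin-forming cells of the brain. In cells of the osteoblast lineage, miR-338-3p has been reported to restrain the differentiation of bone-forming cells, with Runx2, the transcription factor that starts osteoblast differentiation, among its targets. miR-3065 is read from the strand opposite miR-338, so its arms are close to the reverse complements of the arms of miR-338.

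The sequences of the 3 members that RefSeq's miRNA table (GRCm38.p6) lists are shown because each probe result turns on which bases of which strand were read. Capitals mark the seed.
miR-338-3p: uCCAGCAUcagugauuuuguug
miR-338-5p: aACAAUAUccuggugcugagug
miR-3065-5p: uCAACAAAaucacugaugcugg

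The 3 seeds differ, and 0 other mature mouse miRNAs in that table carry any of them. miR-338-3p lies at chr11:120014781-120014802 and miR-338-5p at chr11:120014816-120014837 on the minus strand, and miR-3065-5p lies at chr11:120014780-120014801 on the plus strand. miR-338-3p and miR-3065-5p are therefore complementary over a run of 21 bases. The hairpins are shown with the arms listed above in capitals, to show that they read the same bases from both strands.
Mir338: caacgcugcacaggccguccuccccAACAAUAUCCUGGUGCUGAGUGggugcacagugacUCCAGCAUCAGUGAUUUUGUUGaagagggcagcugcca
Mir3065: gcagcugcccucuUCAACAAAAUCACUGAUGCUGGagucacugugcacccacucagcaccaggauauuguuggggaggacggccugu

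The Mir3065 hairpin (chr11:120014767-120014853, plus strand, 87 bases) lies wholly within the span of the Mir338 hairpin (chr11:120014765-120014862, minus strand, 98 bases). Both fall inside the annotated span of Aatk in RefSeq's gene table, which gives no exons. No other miRNA of the array had a listed match within 100 kb on either side of the matches listed for the miR-3065 probes. Probes without a listed match, which include those of miR-338, could not be counted.

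The array read the cluster with 10 probes, each spotted several times. Those that carry the results are shown 5′ to 3′, with the last base in capitals because it is the base by which a probe exceeds the next shorter one.
miR-338-3p, 20-base probe: caacaaaatcactgatgctG
miR-338-3p, 21-base probe: caacaaaatcactgatgctgG
miR-338-5p, 14-base probe: cactcagcaccagG
miR-338-5p, 15-base probe: cactcagcaccaggA
miR-3065-5p, 17-base probe: ccagcatcagtgatttT
miR-3065-3p, 17-base probe: ccccaacaatatcctgG

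The 21-base probe pairs with bases 2 to 22 of miR-338-3p, and the 20-base probe with bases 3 to 22. Both have the same letters as a stretch of miR-3065-5p, and the miR-3065-5p probes have the same letters as a stretch of miR-338-3p, so neither set of probes is complementary to the miRNA of the opposite strand. The files list mm9 matches for the miR-3065 probes, at chr11:119876100-119876115 for the 17-base probe of miR-3065-5p and chr11:119876140-119876155 for that of miR-3065-3p, each 1 base shorter than the probe. They list the miR-338 probes as unmapped.

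Processed signals, the scanner's background-subtracted brightness in intensity units, were low throughout the cluster. The negative control spots had signals of 1.36 ± 2.86 on the OVX array (SD between 978 spots) and 1.93 ± 2.81 on the sham array (SD between 982 spots), and their 99th percentiles were 7.64 and 8.45 in the same order. A miRNA was called present when over 50% of the usable spots of at least 1 of its probes were marked well above background by the scanner software. By this rule 1 of the 4 members, miR-338-3p, was present on the OVX array, where 15.9% of all mouse miRNAs were, and 0 of 4 were present on the sham array, against 10.7% of all. Of all mouse miRNAs 5.42% shared this pattern of presence in OVX and not in sham. miR-338-5p, miR-3065-5p and miR-3065-3p were among the 83.8% of miRNAs present on neither array. Agilent's own gene-level flag was more lenient. It marked miR-338-3p and miR-338-5p as detected on both arrays, along with 19.8% of all miRNAs on the OVX array and 15.5% on the sham array, and it marked neither arm of miR-3065 on either array.

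**Figure D1:**
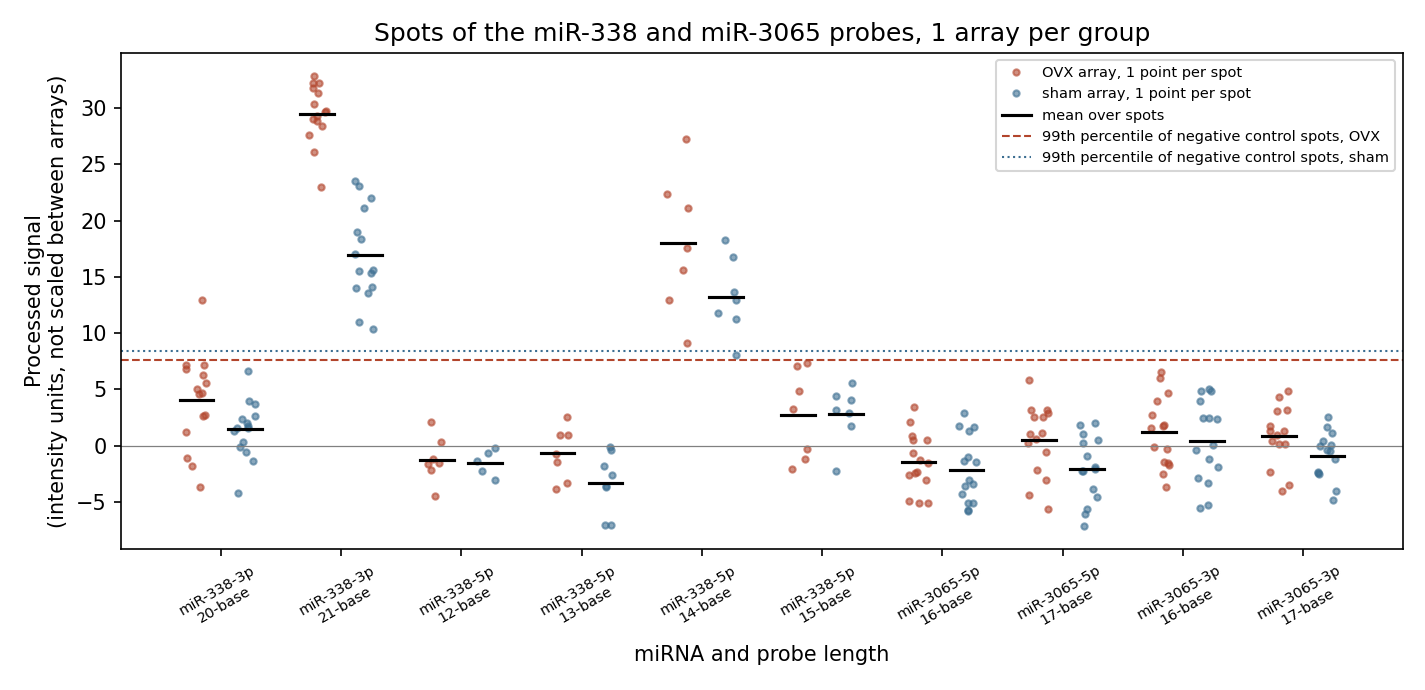
Processed signal in intensity units, unscaled, of every usable spot of the 10 probes of the cluster, with OVX spots left of sham spots for each probe, bars at the mean over spots and horizontal lines at the 99th percentile of each array's negative control spots (7.64 for OVX, 8.45 for sham). The 21-base probe of miR-338-3p and the 14-base probe of miR-338-5p have means above these lines on both arrays, and the other 8 probes have means below them.

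miR-338-3p, the arm reported to act on Runx2, gave the brightest probe of the cluster. On its 21-base probe the 15 OVX spots ran from 23.0 through a median of 29.6 to 32.9, and the 15 sham spots from 10.3 through 15.6 to 23.5. The ranges overlapped by a little, since 14 of the 15 OVX spots lay above the highest sham spot. All 15 OVX spots and 6 of the 15 sham spots were well above background, so that the probe fell short of the call on the sham array with 40% of its spots. Every spot on both arrays lay above the highest negative control spot, which read 10.3 on the OVX array and 9.40 on the sham array. The mean was 29.5 ± 2.60 on the OVX array and 16.9 ± 4.18 on the sham array (SD between 15 spots each), and the difference was 12.6 intensity units with a standard error of 1.27 from the spread between spots. That error is technical and holds no variation between mice.

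The 20-base probe of miR-338-3p, 1 base shorter, read close to background. Its mean was 4.02 ± 4.20 on the OVX array and 1.43 ± 2.52 on the sham array (SD between 15 spots each), and 0 of its spots were well above background on either. The difference of 2.58 units had a spot error of 1.26, and 4 of its 15 OVX spots lay above the highest sham spot. The presence of miR-338-3p therefore rests on 1 of its 2 probes. Over all 30 spots of both probes its mean signal exceeded that of the negative controls by 15.4 on the OVX array and 7.24 on the sham array.

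The OVX array was brighter in general, and the difference of miR-338-3p has to be read against that. Over the 350 probes that passed the spot rule on each array the median ratio of OVX to sham signals was 2.01, with quartiles of 1.57 and 2.50, and the 75th percentiles of these probes differed by a factor of 2.02. The ratio of the unscaled means of the 21-base probe was 1.74, above that of 37.1% of these 350 probes. Among the 131 other probes whose signal, as the geometric mean of both arrays, lay within 25% of that of the 21-base probe, whether present or not, the median ratio was 2.17 with quartiles of 1.49 and 2.98. The ratio for miR-338-3p thus lay inside the quartiles of both sets, below their medians.

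Because the sham spots did not reach the call, the comparison has only a bound. The bound sets the OVX mean against the higher of the sham mean of the probe and the lowest sham signal among probes called present, 17.8. Without scaling it was 1.65-fold higher in OVX. The bound is set by means alone and makes no allowance for the spread between spots or between mice. After each array was scaled to the 75th percentile of the 350 shared probes, the measured log2 levels of the 21-base probe were -3.14 on the OVX array and -2.93 on the sham array, and the log2 bound was -0.29. A bound below 0 gives no fold in either direction. miR-338-3p was thus brighter on the OVX array in absolute signal and was not shown to be higher relative to other miRNAs.

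**Figure D2:**
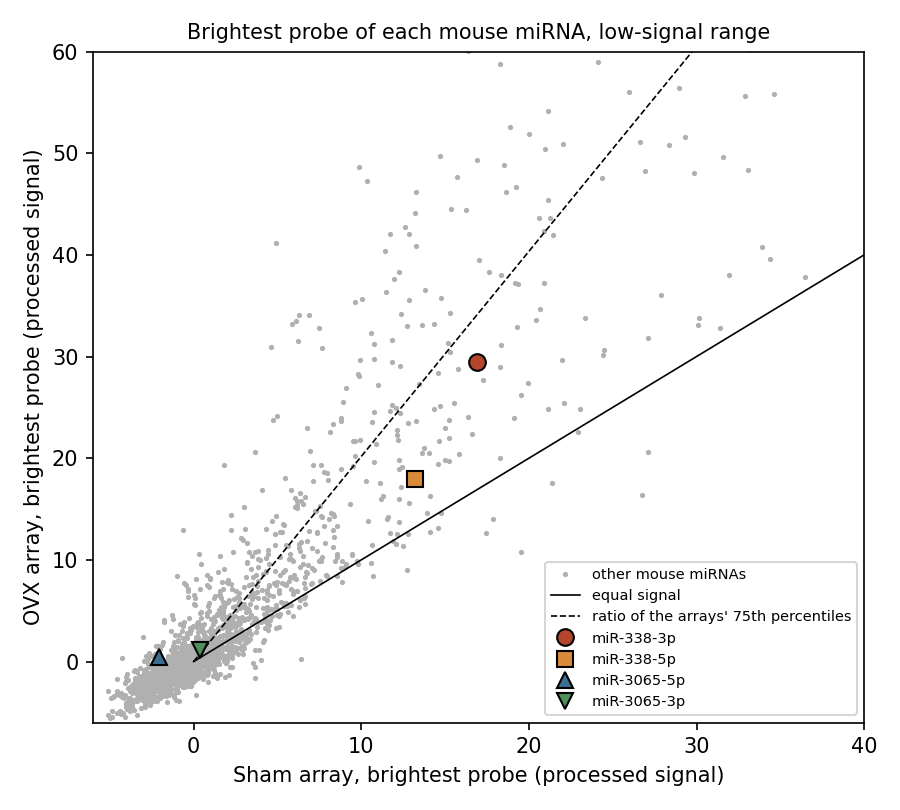
Processed signal of the brightest probe of each mouse miRNA on the OVX array (vertical axis) and the sham array (horizontal axis), in unscaled intensity units and limited to low signals. miR-338-3p (29.5 in OVX, 16.9 in sham) and miR-338-5p (18.0 in OVX, 13.2 in sham) lie between the line of equal signal and the dashed line of the 2.02-fold ratio between arrays, and both arms of miR-3065 lie in the cloud around 0.

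miR-338-5p, the other arm of the same hairpin, was read by 4 nested probes of 12 to 15 bases, of which only the 14-base probe stood above the negative controls. Its 7 OVX spots ran from 9.16 through a median of 17.5 to 27.2, and its 7 sham spots from 8.04 through 12.9 to 18.2. The ranges overlapped, with 3 OVX spots above the highest sham spot. The mean was 18.0 ± 6.10 on the OVX array and 13.2 ± 3.44 on the sham array (SD between 7 spots each), a difference of 4.76 units with a spot error of 2.65. On the OVX array 3 of the 7 spots were well above background, or 42.9%, and on the sham array 0 of 7 were, so no fold is given.

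The 15-base probe of miR-338-5p contains the whole 14-base probe and pairs with 1 more base of the miRNA, yet it read 2.71 ± 3.92 on the OVX array and 2.79 ± 2.55 on the sham array (SD between 7 spots each). The 13-base and 12-base probes had means of -0.70 and -1.23 on the OVX array, against -3.29 and -1.50 on the sham array. All 3 lay within 2 SD of the mean of the negative controls on both arrays. The signal of miR-338-5p rests on 1 of 4 probes, and the next longer probe did not share it. Over all its usable spots miR-338-5p exceeded the negative controls by 3.34 on the OVX array and 0.97 on the sham array. The SD between those spots was 8.80 and 7.11 in the same order. It spans bright and dim probes and is not an error of the mean. With medians over spots in place of means the values turned to -0.40 on the OVX array and -2.01 on the sham array. By medians the miRNA as a whole thus did not stand above the controls.

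miR-3065-5p, the arm complementary to miR-338-3p, gave no signal above the negative controls. Its 17-base probe had 15 OVX spots from -5.60 through a median of 1.06 to 5.80, with a mean of 0.48 ± 3.16 (SD between 15 spots), and 15 sham spots from -7.15 through -2.08 to 1.99, with a mean of -2.07 ± 2.92 (SD between 15 spots). Its 16-base probe had means of -1.43 ± 2.60 on the OVX array and -2.16 ± 2.97 on the sham array (SD between 15 spots each). The OVX and sham spots overlapped widely on both probes.

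miR-3065-3p, the arm opposite miR-338-5p, read likewise. Its 17-base probe had a mean of 0.82 ± 2.68 on the OVX array and -0.89 ± 2.12 on the sham array (SD between 14 spots each), and its 16-base probe had 1.18 ± 3.14 and 0.37 ± 3.66 in the same order (SD between 15 spots each). All 4 probes of both miR-3065 arms had means below the mean of the negative controls on the OVX array and on the sham array. By brightest probe, miR-3065-3p still read above 52.5% of all mouse miRNAs on the OVX array and 49.1% on the sham array. For miR-3065-5p these shares were 45.8% and 16.2%. Means this low were thus common, and the count does not set both arms apart. Of the 59 usable spots of these 4 probes per array, 6 on the OVX array and 4 on the sham array were positive and significant by the scanner software's own test. The share of all spots that pass that test was not taken, so these counts are not read as signal. On either array 0 of the 59 were well above background, against 13.4% of all usable miRNA spots on the OVX array and 9.12% on the sham array. Both arms are reported as not well above background, and no fold is given for them.

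All but 1 of the 10 probes of the cluster, 9 in all, had a higher mean on the OVX array than on the sham array, the exception being the 15-base probe of miR-338-5p. Among the 8 probes not above the 99th percentile of the negative controls these differences were at most 2.60 units. The OVX array was brighter in general, with a median ratio of 2.01 over the 350 probes that passed the spot rule on each array. The share of all probes with a higher mean in OVX was not taken, so the count of 9 does not set the cluster apart. By brightest probe, the miRNAs nearest to miR-338-3p on both arrays were miR-1306-3p (28.8 in OVX, 15.7 in sham), miR-340-3p (29.0 in OVX, 18.3 in sham) and miR-3472 (27.7 in OVX, 17.3 in sham), at distances of 1.33, 1.46 and 1.83 intensity units over the 2 arrays. The nearest to miR-338-5p was miR-3092-3p at 0.56 units, the nearest to miR-3065-5p was miR-6516-5p at 0.06 and the nearest to miR-3065-3p was miR-6974-3p at 0.07. Brightness depends on the probe, so nearness here is of signals on these arrays and does not rank abundance.

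The summaries that pool probes differed from each other in the direction they gave for miR-338-3p and miR-338-5p. Agilent's gene-level signal of miR-338-3p was 24.6 on the OVX array and 14.1 on the sham array, a ratio of 1.75, and that of miR-338-5p was 26.9 on the OVX array and 15.4 on the sham array, also a ratio of 1.75. These signals did not match the miRNAs' own probes. The sums of Agilent's total probe signals were 9.25 in OVX and 3.89 in sham for miR-338-3p, and 2.38 in OVX and 1.04 in sham for miR-338-5p. The gene-level signal thus placed miR-338-5p above miR-338-3p on both arrays, whereas the sums of the probes placed it below. The gene-level signal lay more than 0.05 on the log2 scale from the sum of the miRNA's probes for 99 of the 372 miRNAs detected by Agilent's flag on the OVX array and for 102 of the 291 on the sham array.

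In the value table deposited by the authors, on a log2 scale whose normalization the sources used here do not state, the row printed as miR-338-3p holds -1.05 for OVX and 1.73 for sham, and the row printed as miR-338-5p holds the floor of each column, -3.32 for OVX and -3.18 for sham. The names of this table stand 1 row off its values. As printed, its Spearman correlation across 1881 miRNAs with Agilent's gene-level signal was 0.041 for OVX and 0.016 for sham, and with each value given to the name in the next row it was 0.994 and 0.996, most of these miRNAs being at the floor. Among the miRNAs detected by Agilent's flag alone, the moved names gave 0.996 for OVX and 0.987 for sham with the sums of the probe signals, and 0.59 for OVX and 0.54 for sham with the gene-level signal. With the names moved, miR-338-3p has 1.68 for OVX and 2.78 for sham, a difference of -1.10, and the values -1.05 and 1.73 belong to miR-338-5p, a difference of -2.78. Both arms of miR-3065 are at the floor in both columns under either reading.

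These differences in the value table have the opposite sign to those of the unscaled probes. Over the 281 miRNAs detected by Agilent's flag on both arrays the table's median difference was -0.12, with quartiles of -0.67 and 0.37. The difference of miR-338-3p or one further below it occurred in 37 of the 281, and that of miR-338-5p or one further below it in 19. By the sum of its probes miR-338-5p ranked 3 from the lowest of the 372 detected miRNAs on the OVX array and 1 from the lowest of 291 on the sham array. miR-338-3p ranked 85 from the lowest of 372 on the OVX array and 25 from the lowest of 291 on the sham array. By the gene-level signal miR-338-5p ranked 176 in OVX and 133 in sham, and miR-338-3p ranked 160 in OVX and 123 in sham. The part that these positions play in the table's differences was not tested.

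**Figure D3:**
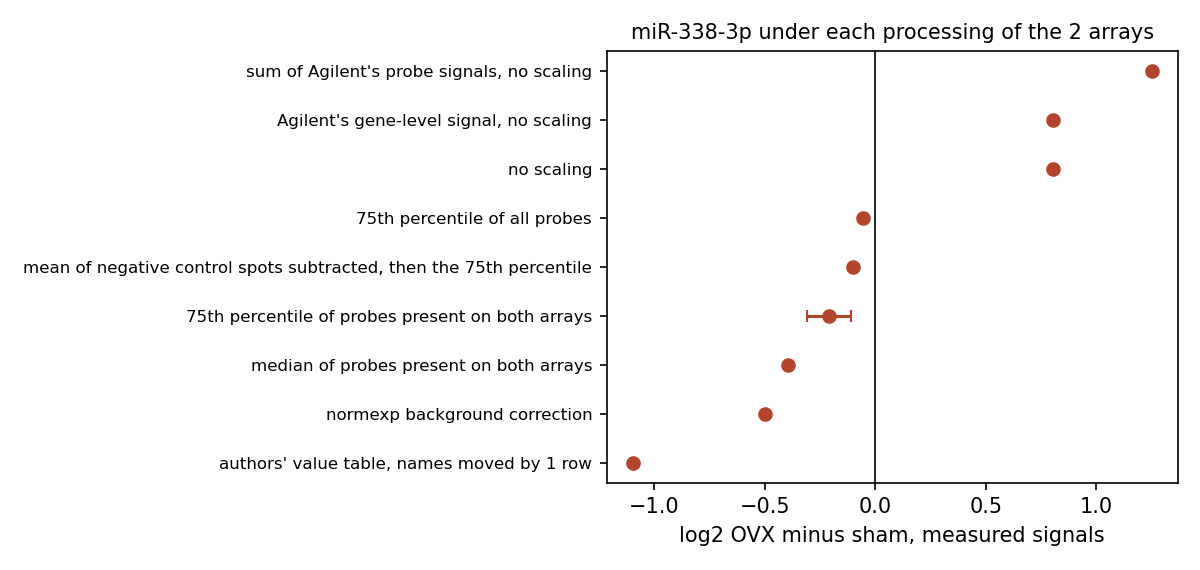
The log2 difference, OVX minus sham, of the measured signal of miR-338-3p under 9 ways of processing the arrays, with the standard error between spots drawn for scaling to the 75th percentile of shared probes (-0.21 ± 0.10). The 3 values without scaling lie above 0, up to 1.25, and the 6 with scaling or normalization lie below 0, down to -1.10 in the authors' value table.

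Of 9 ways of processing the arrays, 3 put the measured signal of miR-338-3p higher in OVX and 6 lower. All 9 start from the same 2 arrays and are not independent, so these counts do not weigh for a direction. The 3 without scaling were the bright probe itself (0.80), Agilent's gene-level signal (0.80) and the sum of the probes (1.25). The 6 others ran from -0.058 when each array was scaled to the 75th percentile of all its probes to -1.10 in the value table. The sign for miR-338-3p between these 2 arrays therefore differed between unscaled values and scaled or normalized ones. Of the latter, -0.058 was smaller in size than the spot error of 0.10 found with the main scaling. The value of -0.10 with the negative controls subtracted was about as large as that error. Neither gives a direction. That error covers spots within an array only, so the larger values among the 6 do not give one either. The normalization behind -1.10 is not stated.

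Other miRNAs reported to target Runx2 were looked at as a list of 11 that includes miR-338-3p. On the OVX array 3 of the 11 were present (15.9% of all mouse miRNAs were) and on the sham array 3 (10.7% of all), and 7 were present on neither (83.8% of all). Counts this small do not set the list apart from the other miRNAs. miR-23a-3p, which has been reported to hold back late osteoblast maturation, had a brightest-probe signal of 339.6 on the OVX array and 227.9 on the sham array. Its scaled log2 difference was -0.33 (spot SE 0.04) and its unscaled one 0.68. miR-30c-5p had 281.6 on the OVX array and 151.7 on the sham array, with a scaled difference of -0.20 (spot SE 0.05) and an unscaled one of 0.81. Both were thus below 0 with scaling and above 0 without, as was miR-338-3p, and the median of the scaled difference over the 197 miRNAs present on both arrays was -0.04.

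miR-133a-3p, a miRNA of skeletal and cardiac muscle that is on the same list, was the one member present on the sham array only. Its brightest probe read 10.8 ± 2.98 on the OVX array and 19.5 ± 4.29 on the sham array (SD between 15 spots each). Its bound, set by means alone as for miR-338-3p, was 2.04-fold higher in sham with scaling and 1.01-fold without. The remaining 7, miR-34c-5p, miR-135a-5p, miR-137-3p, miR-204-5p, miR-205-5p, miR-217-5p and miR-218-5p, had brightest probes between -3.05 and 5.86 on the OVX array and between -2.68 and 5.21 on the sham array. Signals of different probes do not rank the abundance of these miRNAs.

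**Figure D4:**
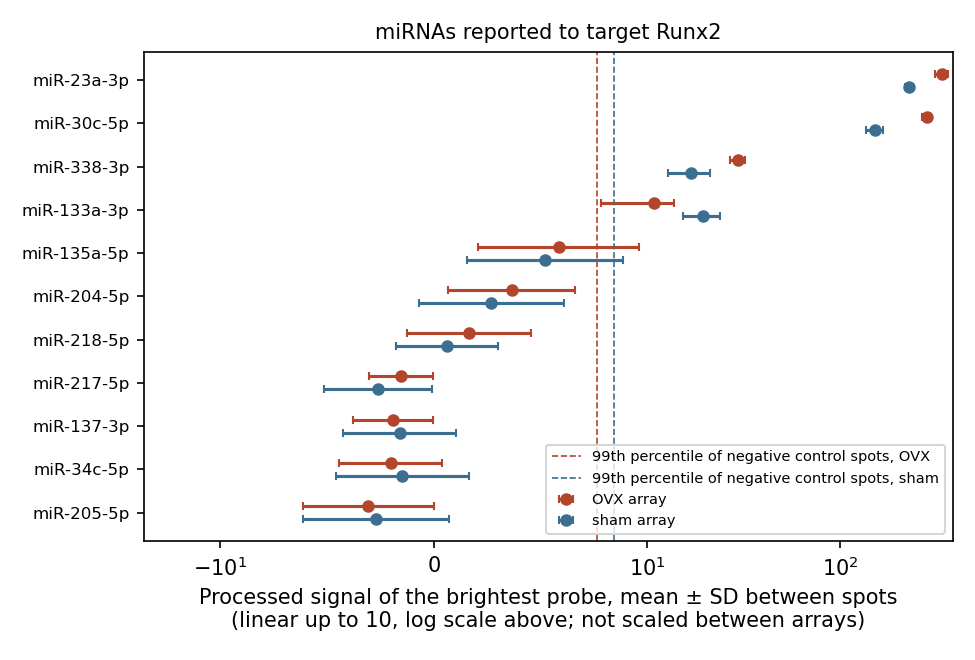
Processed signal of the brightest probe of 11 miRNAs reported to target Runx2, with OVX above sham for each miRNA, points at the mean and bars at the SD between spots, on an axis that is linear up to 10 and logarithmic above. miR-23a-3p and miR-30c-5p lie far above the 99th percentile of the negative controls (dashed lines), miR-338-3p and miR-133a-3p lie above it by less, and the other 7 lie below it.

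The tissue label was checked against marker miRNAs, beside 15.9% of all miRNAs present on the OVX array, 10.7% on the sham array and 83.8% on neither. All 5 miRNAs of marrow and blood were present on both arrays, with miR-451a of red cells at 10036 on the OVX array and 4031 on the sham array and a summed brightest-probe signal for the list of 20321 in OVX and 10864 in sham. After scaling, 4 of these 5 lay above 0 and miR-223-3p below, beside 93 above and 104 below among the 197 miRNAs present on both arrays. The median log2 difference was 0.63 for the 5 and -0.04 for the 197. A list of 5 is small, and the part of its values in those of the cluster was not tested. Both arms of miR-140, the miRNA of cartilage, were present on both arrays. Of the 4 muscle miRNAs 0 were present on the OVX array and 2 on the sham array, with summed unscaled signals of 45.9 in OVX and 52.9 in sham. Those not called read the other way in unscaled signal, miR-1a-3p at 11.2 in OVX and 7.09 in sham and miR-206-3p at 7.56 in OVX and -0.48 in sham. The OVX array was brighter in general, and no scaled difference is given for either, so their direction after scaling is not stated. The part of muscle in the value of miR-133a-3p was not tested. Of the 3 nervous-system miRNAs, the setting in which miR-338 is best known, 0 were present on either array, as for 83.8% of all miRNAs. miR-124-3p and miR-9-5p, which define neurons and neural progenitors, read -3.34 and -2.01 on the OVX array and -3.25 and -0.02 on the sham array. miR-219a-5p, which acts beside miR-338 in oligodendrocytes, read 13.8 ± 2.30 on the OVX array (SD between 13 spots) and 4.66 ± 2.25 on the sham array (SD between 15 spots). Although not called present, its OVX mean lay above the 99th percentile (7.64) and the highest (10.3) of that array's negative control spots. Its sham mean lay below the 99th percentile of the sham array (8.45).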

How the data were processed

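The arrays were scanned and extracted with Agilent Feature Extraction, version 10.7.1.1 per the file headers and 11.0.1.1 per the submitters' processing notes. The deposited files give intensities per spot that are background-subtracted but not normalized between arrays, per the file headers. The authors' deposited value table holds log2 values and was used only with its names moved by 1 row.

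Outlier-flagged spots were dropped (2.90% of miRNA spots in OVX, 2.75% in sham); no miRNA spot was saturated. Probe means over spots were taken to log2 and scaled to the array's 75th percentile over probes well above background on both arrays. Levels near background were compared on the linear scale with the negative control spots. Spot errors cover technical spread within an array only. With 1 array per group the precision of the comparison of OVX with sham is not known. Alternatives were other presence rules, summaries, scalings and background corrections, with normexp (offset 50) from limma 3.58.1 in R 4.3.3 and the rest in Python 3.11.15 with pandas 2.3.3. The calculation of differences and bounds was tested on simulated data. The 4 members, the marker lists and the list of Runx2-targeting miRNAs were chosen with earlier results of these data known. Besides the lists, miRNAs were named by rule: those sharing a seed, those within 100 kb, and the 3 nearest to each member in signal, of which those nearest to miR-338-3p and the closest of the others are given.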

Additional observations from a re-analysis of the deposited data

How the results depend on the processing

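On the OVX array 2 members instead of 1 were present when 1 spot well above background sufficed (19.1% of all miRNAs), by Agilent's gene-level flag (19.8%), and when a probe mean above the 99th percentile of the negative controls sufficed (26.3%). On the sham array these rules gave 1 (15.2% of all), 2 (15.5%) and 2 (18.2%) instead of 0. Of the 32 alternative values of signal above negative controls, 30 moved by less than the SD between spots, which is wide for miR-338 because it spans bright and dim probes. The 2 exceptions were for miR-338-5p with its brightest probe alone, at 16.6 instead of 3.34 in OVX and 11.3 instead of 0.97 in sham. Within that SD, miR-338-3p with its brightest probe alone was at 28.1 instead of 15.4 in OVX and 14.97 instead of 7.24 in sham, and miR-338-5p with medians over spots turned to -0.40 in OVX and -2.01 in sham. The log2 difference of the bright miR-338-3p probe, -0.21 as reported, was -0.058 with the 75th percentile of all probes, -0.39 with median scaling, -0.50 with normexp, -1.10 in the value table and 0.80 without scaling. With alternatives chosen after seeing the data it was 1.25 for the sum of probes and 0.80 for the gene-level signal, both unscaled, and -0.10 with the negative controls subtracted. Its log2 bound, -0.29 as reported, was -0.14, -0.47 and -0.51 with the 75th percentile of all probes, median scaling and normexp, and 0.73 without scaling. Keeping outlier spots changed no call of presence among the 4 members. No paired analysis was possible because each group has 1 array. Signals this close to background limit what the probes of the cluster can show.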

Other observations

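Nested probes of the cluster did not follow 1 pattern with length. Of the 591 pairs on the OVX array that differ by 1 base at the end that pairs towards the miRNA's 5′ end, with at least 1 probe mean above the 99th percentile of the negative controls, the longer probe was brighter in 487 (82.4%); on the sham array it was 323 of 394 (82.0%). The miR-338-3p pair followed this order, with the 21-base probe at 29.5 and the 20-base probe at 4.02 on the OVX array, and at 16.9 and 1.43 on the sham array. So did the miR-338-5p pair of 13 and 14 bases, with the longer probe at 18.0 and the shorter at -0.70 on the OVX array. On the sham array these read 13.2 and -3.29. The miR-338-5p pair of 14 and 15 bases went the other way, with the shorter probe at 18.0 and the longer at 2.71 on the OVX array, and at 13.2 and 2.79 on the sham array. The dimmer probe of each pair lay below the 99th percentile of the negative controls on both arrays, so no ratio is given.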
